A study of Mus musculus with 4 samples.

Results

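The genes described here are the clustered replication-dependent histone genes, which lie side by side in large groups on mouse chromosomes 13 and 3. They were found by gene symbol, as array rows that carry exactly 1 symbol of the H2ac, H2bc, H3c or H4c series (or an older Hist1h to Hist4h name). The rule found 21 genes of 22180 with a row of their own: 6 H2A, 8 H2B and 7 H4 genes, 16 of them on chromosome 13 and 5 on chromosome 3. No H3 gene had a row of its own. Signals came from whole-transcript Affymetrix arrays of Thy1+ LSK cells, a lineage-negative, Sca-1 and Kit positive fraction of bone marrow enriched for blood stem cells. Arrays of 2 Nol3-/- samples, whose labels add MPN, taken here as myeloproliferative neoplasm, were compared with 2 arrays of Nol3+/+ samples.

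Both groups had a C57BL/6 background, were aged 11 to 18 months, received no treatment and gave cells that were not cultured. The title of the series leaves unclear whether MPN applies to both genotypes. Only the Nol3-/- samples carry it in their own labels, which were followed. How Nol3 was deleted, the sex of the mice and whether an array held RNA of 1 mouse or of several are not given in the labels, so the spread between arrays may be technical. Kit, a sort marker, had log2 signals between 7.39 and 8.38 on the 4 arrays. Thy1, at 4.64 to 5.24, lay close to the limit for dim genes. Cd34, which the labels do not name as a sort marker, read 8.65 to 8.82. Of 11 stem and progenitor cell genes, with Kit, Thy1 and Cd34 among them, 3 lay higher and 2 lower in Nol3-/- MPN without overlap. The shares over all genes tested were 19.7% and 15.9%. Hlf read 5.37 and 5.50 in Nol3-/- MPN, against 6.44 and 6.09 in Nol3+/+. Cd48 read 8.99 and 8.01 against 6.42 and 7.76, and the limma adjusted p was 0.841 for both. Xist read 10.88 and 10.69 in Nol3-/- MPN, against 5.43 and 5.28 in Nol3+/+, while the Y-linked gene Eif2s3y read 4.24 and 3.97 against 6.53 and 7.17. Genotype, the MPN label and sex-linked signal therefore follow the same division of the arrays and cannot be told apart. In sorted cells measured in bulk, fewer cells that express a gene and less RNA per cell cannot be told apart either.

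Replication-dependent histone genes supply the H2A, H2B, H3 and H4 proteins that package newly copied DNA, and their mRNAs build up in S phase and are lost when DNA synthesis stops. Their mRNAs have no introns and end in a stem-loop bound by Slbp instead of a poly(A) tail, while Npat, a target of cyclin E and Cdk2, drives their transcription in histone locus bodies. Most blood stem cells are at rest, so these mRNAs are commonly read as a sign of how many cells replicate their DNA. The gene copies are nearly identical in sequence. The annotation reflects this: of 58 such genes in RefSeq, 21 had their own row, 36 appeared only on rows that list several genes, and H2ac14 appeared on neither. Of the 21 genes, 14 were also listed on a shared row and 7 were not, so a row of 1 gene may still hold signal of its near-identical copies and each value below is uncertain in that respect.

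The upstream sequences show what the genes of a class have in common. RefSeq promoter windows (GRCm38.p6) matched 19 of the 21 genes, all but H2bc21 and H4c14, and bases -250 to -1 before the annotated start were searched on both strands for 4 motifs. These were TATAAA (the TATA box), CCAAT, ATTTGCAT (the octamer bound by Oct-1, known from H2B promoters) and GGTCCG (the end of the H4 element bound by Hinfp). Of 64 matches in these windows, 0 pairs overlapped. The windows printed belong to the tested gene with the smallest limma p in each class, and to H2bc3 as an example of an H2B promoter that holds the octamer. Capitals mark every match of the 4 motifs on either strand. The H2ac1 window is chr13:23934187-23934436 (+ strand), that of H2bc9 chr13:23543445-23543694 (- strand), that of H4c12 chr13:21750554-21750803 (- strand) and that of H2bc3 chr13:23746484-23746733 (+ strand).
H2ac1: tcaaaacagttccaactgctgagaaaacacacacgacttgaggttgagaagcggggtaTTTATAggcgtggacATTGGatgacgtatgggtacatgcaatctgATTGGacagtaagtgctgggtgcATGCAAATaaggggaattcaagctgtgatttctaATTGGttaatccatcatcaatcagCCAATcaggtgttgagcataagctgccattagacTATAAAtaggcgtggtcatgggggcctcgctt
H2bc9: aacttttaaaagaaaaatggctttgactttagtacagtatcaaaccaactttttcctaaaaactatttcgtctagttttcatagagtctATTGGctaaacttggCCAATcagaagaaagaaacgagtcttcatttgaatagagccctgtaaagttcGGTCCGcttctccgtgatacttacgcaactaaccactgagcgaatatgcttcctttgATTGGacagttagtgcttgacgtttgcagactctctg
H4c12: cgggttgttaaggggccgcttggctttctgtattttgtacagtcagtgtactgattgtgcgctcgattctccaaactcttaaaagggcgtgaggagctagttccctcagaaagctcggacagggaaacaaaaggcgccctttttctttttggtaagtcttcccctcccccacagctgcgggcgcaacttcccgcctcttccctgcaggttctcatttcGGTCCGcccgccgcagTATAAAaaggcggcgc
H2bc3: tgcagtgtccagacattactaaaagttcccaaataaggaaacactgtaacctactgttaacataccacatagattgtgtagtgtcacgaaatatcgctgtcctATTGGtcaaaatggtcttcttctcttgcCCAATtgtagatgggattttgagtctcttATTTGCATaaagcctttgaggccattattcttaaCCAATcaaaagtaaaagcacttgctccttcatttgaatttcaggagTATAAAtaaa
CCAAT was found in 6 of 6 H2A and 7 of 7 H2B windows but in 1 of 6 H4 windows, against 33.8% of all 32851 RefSeq windows. ATTTGCAT was found in 5 of 7 H2B and 3 of 6 H2A windows and in 0 of 6 H4 windows, against 1.60% of all windows. The H2A genes H2ac1 and H2ac12, whose windows hold it, each face an H2B gene head to head: H2bc1 and H2ac1 start 281 bases apart and H2ac12 and H2bc12 start 178 bases apart, so each pair shares its upstream sequence. GGTCCG was found in 3 of 6 H4 windows and in the H2bc9 window, against 6.72% of all windows. TATAAA was found in 10 of 19 windows, against 12.4%, which is not a count of working TATA boxes. Its only match lay on the opposite strand in the H2bc12 and H2bc22 windows. In the windows of H2bc1, H4c17 and H4c9 it lay at -94, -128 and -137. These matches describe letters in a window and do not show binding.

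No clustered histone gene differed between Nol3-/- MPN and Nol3+/+ past the adjusted threshold of 0.05 (limma, Benjamini-Hochberg over 16635 genes). Genes whose mean over the 4 arrays lay under 4.835, the 25th percentile of all genes, were left out as dim, which kept 12 of the 21 histone genes in the test. Of these 12, 0 passed the adjusted threshold, against 4 genes or 0.0240% of all genes, and 1, H2ac1, reached an unadjusted p under 0.05, against 5.80%. Both Nol3-/- MPN arrays lay above both Nol3+/+ arrays for 2 of the 12 genes, against 19.7% of all genes, and below them for 2, against 15.9%. Over all 21 genes, dim ones included, 4 lay above and 3 below in this way, against 18.8% and 16.4% of 22180 genes. The difference was positive for 5 of the 12 tested genes, against 51.7%. Differences ran from -0.52 to 0.50 log2 units with a median of -0.10, against a median of 0.01 for all genes tested. None was 2-fold at an unadjusted p under 0.05, a rule that 1.02% of all genes met. By limma's 95% intervals, changes of more than 2-fold were outside the interval for 8 of the 12 genes in both directions and inside it for H2ac21, H4c14, H2bc3 and H2bc9 in at least 1 direction.

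**Figure D1:**
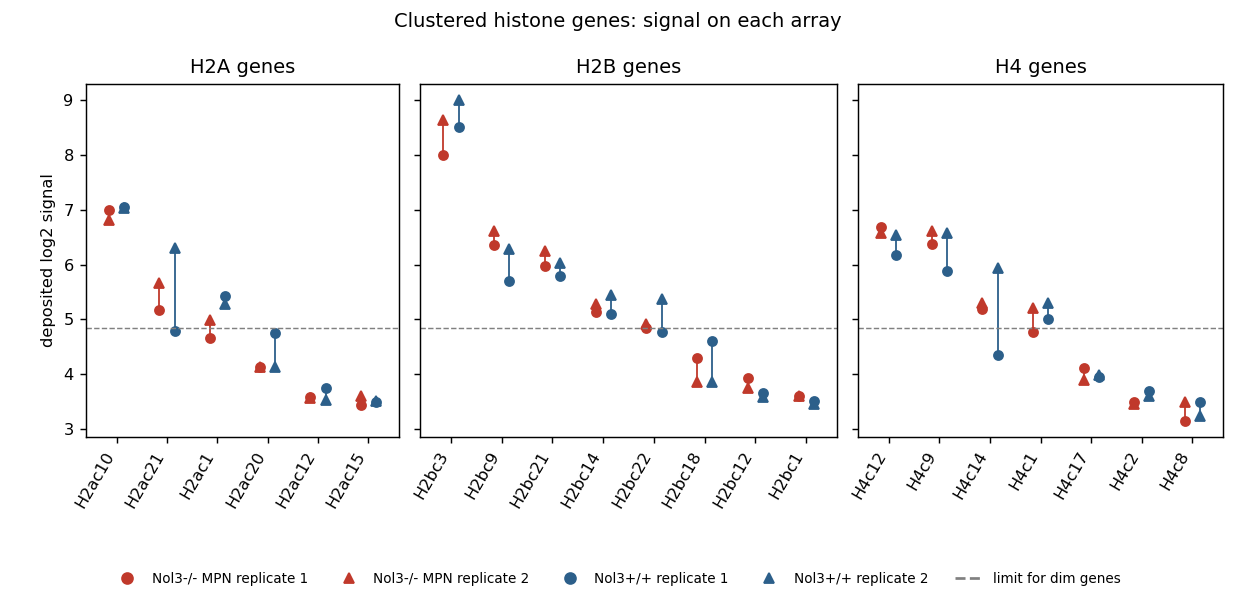
Deposited log2 signal (vertical axis) of the 21 clustered histone genes (horizontal axis, by class and falling mean) on each array, with Nol3-/- MPN in red left of Nol3+/+ in blue, circles for replicate 1, triangles for replicate 2, a line joining the 2 arrays of a group and a dashed line at the limit for dim genes of 4.835. The 2 groups overlap for 14 of the 21 genes, against 14381 of all 22180 genes with a row. The blue lines of H2ac21 and H4c14 are the longest.

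Among the H2A genes, which encode the histone that pairs with H2B in the nucleosome, the smallest limma p belonged to H2ac1. H2ac1 encodes the variant TH2A, known from testis and oocyte. It read 4.66 and 4.99 in Nol3-/- MPN, against 5.43 and 5.27 in Nol3+/+. The groups did not overlap, and the difference was -0.52 (SE 0.16, limma adjusted p = 0.841). The Nol3-/- MPN mean of 4.82 lay under the dim limit of 4.835, so the row entered the test only through its Nol3+/+ mean of 5.35. Its unadjusted p of 0.022 in limma is therefore not read as a difference. Its head-to-head partner H2bc1, which encodes the testis variant TH2B, read 3.60 and 3.60 against 3.50 and 3.46, all below that limit.

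The other H2A rows showed smaller differences. H2ac10 read 7.0 and 6.82 in Nol3-/- MPN, against 7.05 and 7.03 in Nol3+/+, a difference of -0.13 (SE 0.20, limma adjusted p = 0.949). Its groups did not overlap, but the 2 Nol3-/- MPN arrays lay farther apart than the group means. H2ac21, on chromosome 3, read 5.16 and 5.67 against 4.78 and 6.30, so that both Nol3-/- MPN values fell between the 2 Nol3+/+ values (difference -0.13, SE 0.51, limma adjusted p = 0.986). Its second row was dim. The dim H2A genes H2ac12, H2ac15 and H2ac20 had signals between 3.43 and 4.75 and differences between -0.31 and 0.02.

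The H2B genes gave no common direction. H2bc3 read 8.0 and 8.64 in Nol3-/- MPN, against 8.51 and 9.01 in Nol3+/+, and the groups overlapped (difference -0.44, SE 0.33, limma adjusted p = 0.877). H2bc9 stood on the other side, at 6.36 and 6.61 against 5.69 and 6.29. Its groups did not overlap, but the 2 Nol3+/+ arrays lay farther apart than the group means (difference 0.50, SE 0.26, limma adjusted p = 0.841). H2bc21 encodes the H2B variant known as H2be, studied in olfactory neurons. It read 5.98 and 6.24 in Nol3-/- MPN, against 5.79 and 6.02 in Nol3+/+ (difference 0.21, SE 0.18, limma adjusted p = 0.888). H2bc14 read 5.13 and 5.27 against 5.10 and 5.44, and H2bc22 read 4.84 and 4.92 against 4.76 and 5.37. In both genes the Nol3-/- MPN values lay between the Nol3+/+ values. Of the dim H2B genes, H2bc12 read 3.92 and 3.74 against 3.65 and 3.58, and H2bc18 read 4.30 and 3.85 against 4.61 and 3.85.

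The H4 genes encode an identical or nearly identical protein from several clustered copies, and 3 of the 4 tested rows had a positive difference. H4c12 read 6.68 and 6.57 in Nol3-/- MPN, against 6.18 and 6.54 in Nol3+/+. The groups stood apart by a margin far smaller than the spread of Nol3+/+ (difference 0.27, SE 0.21, limma adjusted p = 0.879). H4c9 read 6.37 and 6.62 against 5.88 and 6.57 (difference 0.27, SE 0.28, limma adjusted p = 0.918), and H4c1 read 4.76 and 5.21 against 5.0 and 5.29 (difference -0.16, SE 0.20, limma adjusted p = 0.937). H4c14, on chromosome 3, read 5.19 and 5.29 against 4.34 and 5.94, so its Nol3-/- MPN values again fell between those of Nol3+/+ (difference 0.10, SE 0.51, limma adjusted p = 0.992). The dim rows of H4c2, H4c8 and H4c17 had signals between 3.15 and 4.11.

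**Figure D2:**
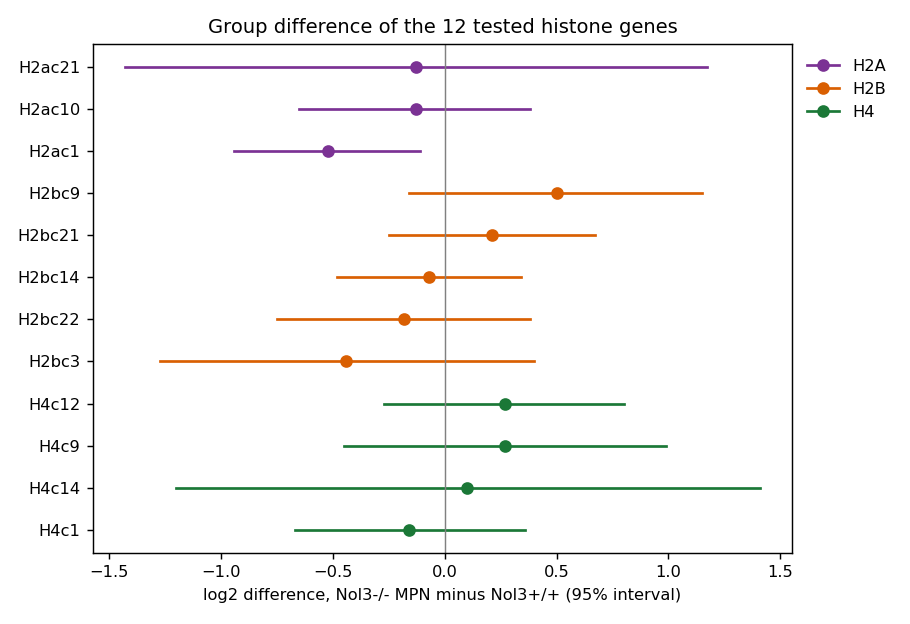
Log2 difference of the 12 tested histone genes, Nol3-/- MPN minus Nol3+/+ (horizontal axis), with limma's 95% interval as a line, coloured by class. All intervals cross 0 except that of H2ac1, which runs from -0.94 to -0.11 before any adjustment for the number of genes.

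The spread within a group was larger than the difference between groups for most of these genes. In 11 of the 12 tested genes, all but H2ac1, the 2 arrays of at least 1 group lay farther apart than the group means, against 77.0% of all genes. The median distance between the 2 Nol3-/- MPN arrays was 0.25 log2 units for the histone genes and 0.18 for all genes, and between the 2 Nol3+/+ arrays it was 0.44 and 0.20. Among the tested genes, replicate 2 was more often the higher array of both groups. Nol3-/- MPN replicate 2 lay above replicate 1 for 10 of the 12 genes, against 58.0% of all genes, and Nol3+/+ replicate 2 did for 10, against 47.9%. The other histone rows did not follow. Replicate 2 was the higher array for 2 of the 9 dim genes in Nol3-/- MPN and for 2 in Nol3+/+, against 54.8% and 42.2% of 5545 dim genes. On the 18 tested rows that list several histone genes, described further on, it was higher for 8 in Nol3-/- MPN and for 10 in Nol3+/+, against 55.3% and 48.5% of all rows. The median signal of the 12 genes was 5.59 and 5.95 in Nol3-/- MPN, against 5.56 and 6.15 in Nol3+/+, so the Nol3-/- MPN medians fell between the Nol3+/+ ones. Replicate 2 was the higher array for 3 of 7 replacement histone genes in Nol3-/- MPN and for 0 in Nol3+/+, and for 18 and 15 of 30 S phase genes. Whether the histone genes differ from these lists in this was not tested.

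**Figure D3:**
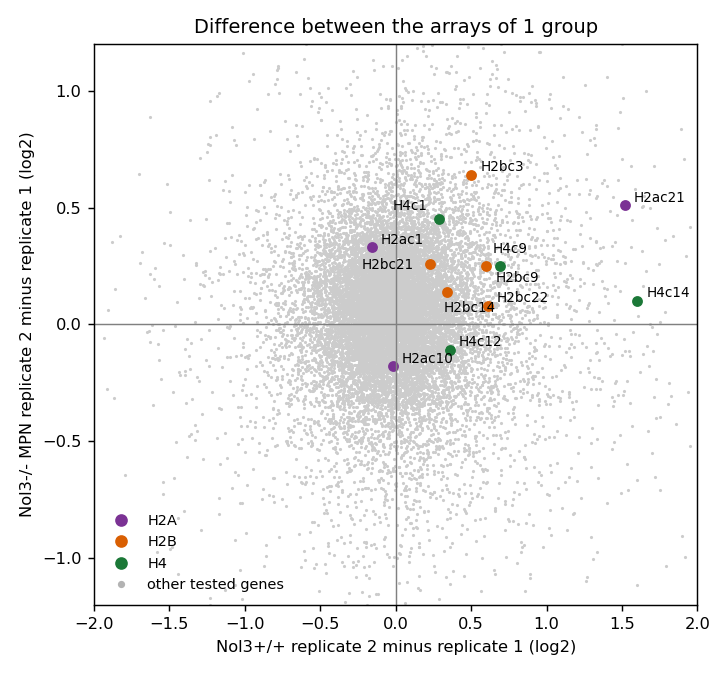
Log2 difference between replicate 2 and replicate 1 in Nol3+/+ (horizontal axis) and in Nol3-/- MPN (vertical axis) for the 12 tested histone genes (coloured by class) and the other tested genes (grey, 315 of all tested genes outside the axes). Most histone genes lie right of the vertical line and above the horizontal one, and H2ac21 and H4c14 lie farthest right.

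The sign of the median depended on which arrays were used. With all arrays the median difference of the histone genes was -0.10. It was -0.27 without Nol3+/+ replicate 1 and 0.22 without Nol3+/+ replicate 2. The median also turned, to 0.10, when Nol3-/- MPN replicate 1 was left out, and it was -0.09 when replicate 2 of that group was. The H2A median lay between -0.45 and -0.14 in these 4 fits, and 6 of the 12 genes kept their sign. Where the groups do not overlap, as for H2ac1, H2ac10, H2bc9 and H4c12, leaving out 1 array cannot turn the sign. With H2ac1 and H2ac10 among the 3 tested H2A genes, that class median could not turn either. H4c14 shows the dependence on the arrays most plainly, with a difference of -0.70 without Nol3+/+ replicate 1 and of 0.91 without Nol3+/+ replicate 2. Without replicate 1, 8 of the 12 genes had both Nol3-/- MPN values lower than in the remaining Nol3+/+ array and 2 higher, against 30.1% and 36.5% of all genes. Without replicate 2, 8 lay higher and 2 lower, against 37.6% and 35.8%. In limma, 3 genes had an unadjusted p under 0.05 without replicate 1, against 5.57%, and 4 did without replicate 2, against 11.4%. Leaving out a Nol3-/- MPN array moved the counts less: without its replicate 1, 4 lay higher and 2 lower (against 37.7% and 26.3%), and 0 reached that p (3.44%). Without its replicate 2, 2 lay higher and 4 lower (31.9% and 35.1%), and 1 reached it (4.92%). The lone array of a group was taken to vary like the other group in these fits. The difference of H2ac1 ran from -0.69 to -0.36 over these fits, and its sign could not turn because its groups do not overlap.

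Rows that list several histone genes extend the view to the copies without a row of their own, including all H3 genes. There were 37 such rows, of which 34 held distinct values, and 18 of these passed the limit for dim genes in a fit over all rows of the table. Of the 18, 0 passed the adjusted threshold, against 0.347% of 28799 rows, and 0 reached an unadjusted p under 0.05, against 5.99%. Both Nol3-/- MPN arrays lay higher for 4 of the 18, against 19.0%, and lower for 3, against 17.2%, and the median difference was -0.11. The genes behind such a row cannot be told apart, so rows are named here by class and by the number of genes listed.

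The widest difference was on an H3 row that lists 8 genes. It read 7.14 and 6.91 in Nol3-/- MPN, against 10.15 and 7.75 in Nol3+/+, a difference of -1.92 (SE 0.89, limma adjusted p = 0.853). Nol3+/+ replicate 1 alone was high, and without it the difference was -0.72, a value with no test. A second H3 row with the same 8 genes read 7.36 and 6.97 against 7.38 and 7.41 and did not show that high value. Rows that list the same genes also differed in sign elsewhere. An H4 row that lists 13 genes stood at 6.87 and 6.92 in Nol3-/- MPN, against 6.05 and 6.58 in Nol3+/+ (difference 0.58, SE 0.26, limma adjusted p = 0.853). The other tested row of these 13 genes read 6.01 and 5.87 against 5.84 and 6.62, a difference of -0.29. Among the H2B rows, one with 4 genes read 7.95 and 7.97 against 8.33 and 8.56 (difference -0.49, SE 0.24, limma adjusted p = 0.854). The other 2 tested rows of these 4 genes had differences of 0.12 and 0.29. An H2B row with 3 genes read 6.48 and 4.37 against 3.96 and 5.02, with both groups widely spread.

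**Figure D4:**
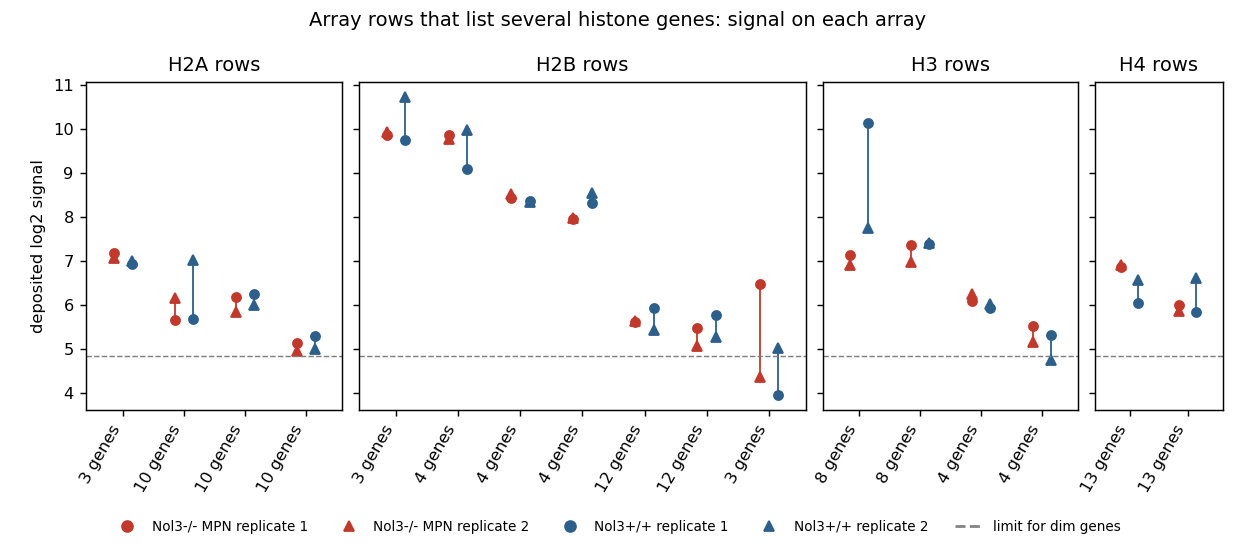
Deposited log2 signal (vertical axis) on each array for the rows above the limit for dim genes that list several H2A, H2B, H3 or H4 genes (horizontal axis, labelled by the number of genes listed), with Nol3-/- MPN in red left of Nol3+/+ in blue and circles for replicate 1 and triangles for replicate 2. The H3 row at the left of its panel has 1 high blue point at 10.15, and the groups overlap or lie close on most other rows.

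Linker histone H1 binds the DNA between nucleosomes, and its replication-dependent genes sit in the same chromosome 13 cluster under symbols the rule does not match. They were added after their values were seen. H1f2 read 5.36 and 5.58 in Nol3-/- MPN, against 6.31 and 5.44 in Nol3+/+, and H1f3 read 5.64 and 5.49 against 5.56 and 5.70. Their differences were -0.41 (SE 0.31, limma adjusted p = 0.878) and -0.06 (SE 0.14, limma adjusted p = 0.965). H1f1, H1f5 and the testis gene H1f6 were dim, and H1f4 shared its row with H2B genes.

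The replacement histones, whose mRNAs carry a poly(A) tail and serve chromatin outside S phase, gave no call either. Of 7 tested genes, 2 lay higher and 2 lower in each Nol3-/- MPN array than in either Nol3+/+ array, against 19.7% and 15.9% of all genes, and the median difference was -0.01. H2az1, a variant at gene starts, read 4.83 and 4.87 in Nol3-/- MPN, against 5.09 and 5.07 in Nol3+/+. H2ax, the variant that is phosphorylated at DNA breaks and whose mRNA also occurs in a stem-loop form, read 5.52 and 5.43 against 6.15 and 5.58. Macroh2a1, a variant linked to silent chromatin, read 8.33 and 8.33 against 8.18 and 7.64. Their limma adjusted p-values were 0.841, 0.847 and 0.863. The linker variant H1f7, known from testis, read 5.28 and 5.11 against 5.03 and 4.92 (limma adjusted p = 0.857).

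No gene that makes or trims histone mRNA passed the threshold. Slbp, the stem-loop binding protein, read 7.37 and 7.15 in Nol3-/- MPN, against 7.28 and 7.42 in Nol3+/+. Npat read 6.25 and 6.32 against 6.84 and 5.88, and Casp8ap2, a partner of Npat in histone locus bodies, read 7.90 and 8.04 against 7.49 and 8.09. Of 21 tested genes of this list, 0 reached an unadjusted p under 0.05, against 5.80% of all genes. Both Nol3-/- MPN values lay above those of Nol3+/+ for 5 and below them for 2, against 19.7% and 15.9%. The 3 smallest limma p-values were those of Coil, the Cajal body scaffold, Cpsf2, a subunit of the cleavage complex, and Mblac1, a nuclease of histone pre-mRNA. Their differences were -0.22, 0.38 and 0.26 (limma adjusted p = 0.843, 0.847 and 0.87).

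None of the histone chaperone, S phase or mitotic genes passed the adjusted threshold in limma. Asf1a, a chaperone of H3 and H4, read 9.55 and 9.52 in Nol3-/- MPN, against 8.95 and 8.65 in Nol3+/+ (difference 0.74, SE 0.21). Hat1, which acetylates newly made H4, read 11.25 and 11.05 against 10.84 and 10.67 (difference 0.40, SE 0.14), and the limma adjusted p was 0.841 for both. Nap1l1, a chaperone of H2A and H2B, differed by 0.35 (SE 0.17, limma adjusted p = 0.841). Asf1b, the paralog of Asf1a, read 6.05 and 6.23 against 6.35 and 6.10. Of 25 tested chaperone and import genes, 5 lay higher and 3 lower in each Nol3-/- MPN array than in either Nol3+/+ array, against 19.7% and 15.9% of all genes, and the median difference was 0.10. These shares are near those of all genes.

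Of 30 tested S phase genes, 14 lay higher and 1 lower in each Nol3-/- MPN array than in either Nol3+/+ array, against 19.7% and 15.9% of all genes, with a median difference of 0.16. Gins1, a subunit of the replicative helicase, read 6.04 and 6.59 against 5.58 and 4.92, and Mcm6, another subunit, read 9.11 and 8.84 against 8.05 and 8.28. Their differences were 1.06 (SE 0.30) and 0.81 (SE 0.23), with a limma adjusted p of 0.841 for both. Cdc6, which loads that helicase, differed by 0.57 (SE 0.19, limma adjusted p = 0.841). Of 24 tested mitotic genes, 9 lay higher and 1 lower, against the same shares, with a median of 0.13. The smallest p-values among them belonged to Bub1b, Birc5 and Cenpe, which differed by 0.65, 0.27 and 0.46 (limma adjusted p = 0.841 for each). Whether the histone genes differ from these lists was not tested.

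**Figure D5:**
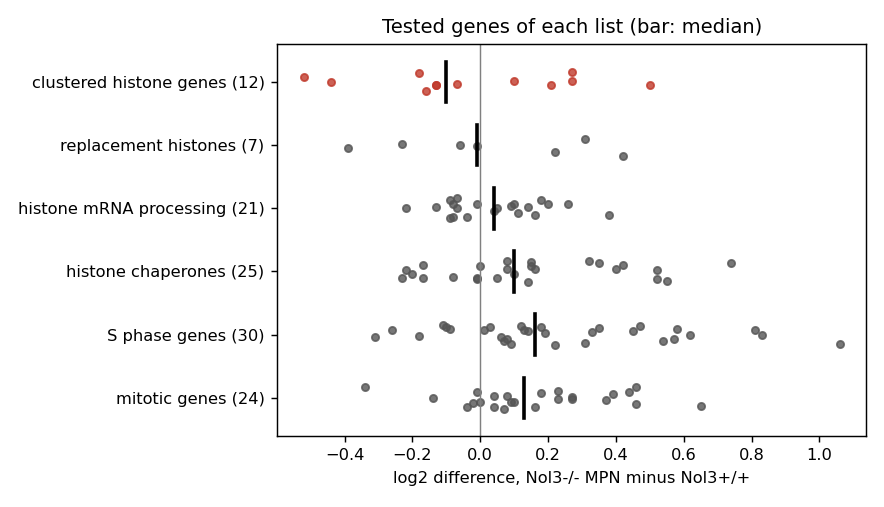
Log2 difference, Nol3-/- MPN minus Nol3+/+ (horizontal axis), of each tested gene (points) in 6 lists, with the number of genes in brackets and a black bar at the median. The medians were -0.10 for the clustered histone genes (red), -0.01 for replacement histones, 0.04 for histone mRNA processing, 0.10 for chaperones, 0.16 for S phase and 0.13 for mitotic genes.

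Rn7sk, Rpph1, Terc, Malat1 and Neat1, listed as RNAs that lack a poly(A) tail, were set beside the histone genes. Neat1 is a partial exception, since a short form of it carries such a tail. Of these 5 genes, 1 lay higher and 3 lower in each Nol3-/- MPN array than in either Nol3+/+ array. Over all genes the shares were 19.7% and 15.9%. Rpph1, the RNA of RNase P, read 8.90 and 7.58 in Nol3-/- MPN, against 6.20 and 7.32 in Nol3+/+, with wide spread in both groups. Malat1 read 11.87 and 11.54 against 12.19 and 11.95, and Rn7sk read 11.78 and 11.49 against 11.81 and 11.95. Mature granulocyte and monocyte markers, which the sort should deplete, had 1 of 8 tested genes higher and 4 lower without overlap of the groups. These counts stand against 19.7% and 15.9% of all genes. S100a9 read 8.41 and 8.26 in Nol3-/- MPN, against 8.93 and 9.40 in Nol3+/+. Adgre1 went the other way, at 5.90 and 5.88 against 5.49 and 5.56. Ly6g, left out as dim by its mean over the 4 arrays, read 4.96 and 5.38 against 4.43 and 4.24. Against the same shares, 1 of 7 erythroid markers lay higher and 3 lower, 2 and 2 of 8 megakaryocyte markers, 4 and 0 of 5 B cell markers, and 3 and 2 of 8 T and NK cell markers. Their part in the histone signals was not tested.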

How the data were processed

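Gene expression was measured on 4 arrays, 2 per group. Small-sample RNA was column-purified, then amplified isothermally from a single primer and biotin-labelled, per the labels' protocols. The submitters' processing notes name Affymetrix Expression Console and Transcriptome Analysis Console without versions. Their background correction and normalization steps were not given in the sources used here. Values in the 41345 rows are log2 signals as deposited by the authors. That scale was read from the values (2.84 to 13.5, array medians 5.35 to 5.39), and the base is not stated. Scanner intensities and detection p-values were not analysed, which means that a low signal and background cannot be told apart, and precision is limited by the number of arrays.

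Rows were named through the platform annotation: 23521 had 1 symbol and 1814 several. The row with the highest mean stood for each of the 1082 genes with several rows. The comparison used limma 3.58.1 under R 4.3.3 (lmFit, eBayes with a variance trend, 2 residual and 3.19 prior degrees of freedom), and the script was checked on simulated data. Rows with several histone genes were read from a second fit over all rows past the same limit, added after the annotation was seen. Members were read out of these fits and nothing was adjusted over them alone. Named genes were, in each histone class, the 3 with the smallest p and the 2 with the highest mean, and the 3 with the smallest p in each list of histone-related genes and of RNAs without a poly(A) tail. The stem and progenitor cell list and the cell type lists are given by counts with a few examples. The sex-linked list is given by examples only, and this rule was not followed for these lists. The remaining histone genes, Slbp, Npat, Casp8ap2, Asf1b, Macroh2a1, Kit, Thy1, Cd34 and the rows of several genes were named beyond this rule. They were chosen after their values were seen. Members and lists were chosen with earlier results of these data known. Alternatives were a replicate block, fits that leave out 1 array, other scalings, variance models, limits for dim genes and another choice of row.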

Additional observations from a re-analysis of the deposited data

How the results depend on the processing

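Over 12 alternatives, 0 of 138 member values passed the adjusted threshold (lowest limma adjusted p = 0.195, H4c14 without Nol3+/+ replicate 2). No tested gene's sign turned under another scaling. Another variance model, another limit for dim genes or the block could not turn a sign, because a gene's difference is the same in these fits. Averaging a gene's rows could bear on H2ac21 alone, which then fell under the limit for dim genes and had no value. Leaving out 1 array turned 7 values. The ranges were -0.89 to 0.63 for H2ac21, -0.24 to 0.10 for H2bc14, -0.49 to 0.12 for H2bc22, -0.38 to 0.07 for H4c1, -0.08 to 0.62 for H4c9 and -0.70 to 0.91 for H4c14. H2ac1, H2ac10, H2bc3, H2bc9, H2bc21 and H4c12 kept their sign. Of these, the groups of H2ac1, H2ac10, H2bc9 and H4c12 do not overlap, so leaving out 1 array could not turn their sign. Over the same 4 fits, 0 to 39 genes passed over all genes, 2 to 8 histone genes lay lower and 2 to 8 higher in Nol3-/- MPN, and 0 to 4 reached an unadjusted p under 0.05. Without Nol3+/+ replicate 1 the last were H2ac21, H2bc22 and H4c14, all negative, and without Nol3+/+ replicate 2 they were H2ac1, negative, and H2bc9, H4c9 and H4c14, positive.

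With the replicate block, 0 genes passed over all genes, against 4. The labels name no block, and the deviations of same-numbered arrays correlated across all tested genes at r = 0.0485. Whether same-numbered arrays were handled together was not tested. Without the limit for dim genes, 4 histone genes lay higher and 3 lower, among 21, against 18.8% and 16.4% of all genes. With genes under the 50th percentile left out, 7 histone genes remained in the test, of which 2 lay higher and 1 lower. Of these 7, 0 reached an unadjusted p under 0.05 in limma, and the shares over all genes were not computed for this limit. With these fewer genes the median over all histone genes turned to 0.21, against -0.10, and the H2B median to 0.21, against -0.07. The H2B median also turned, to 0.03, with no limit. The cause of the other changes was not tested.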
